A study of Mus musculus with 16 samples.

Results

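Ribosome biogenesis factors are the proteins that transcribe, modify, cut and assemble ribosomal RNA (rRNA) into ribosomal subunits. A set of 40 such genes was chosen by name, and each symbol was matched to 1 Ensembl identifier, out of 52636 in the count table. All 40 passed the filter on low counts that left 12742 genes for testing. The cells were mouse pluripotent cells of the state that the labels call RSC, derived from embryonic stem cells of 2 targeted clones, 4 and 8. They carry a c-RAF construct switched on by 4-hydroxytamoxifen (4OHT), so that 4OHT activates MEK and then ERK. All groups were grown in medium with the Wnt secretion inhibitor IWP2 and LIF, in which the MEK inhibitor PD03 had been exchanged for 250 nM of the FGF receptor inhibitor PD17 for 48 h. The group 0h had no 4OHT, 2h and 4h had 2 h and 4 h of 250 nM 4OHT, and rev had 4 h of 4OHT followed by 2 h with a MEK inhibitor at a dose that the labels do not state. Each clone is 1 cell line. Each group held 4 rRNA-depleted total RNA libraries, 2 from each clone. No group with 6 h of 4OHT and no inhibitor was analysed here, so rev differs from 4h by 2 h of further culture as well as by the inhibitor. No cells lacking the construct and given 4OHT were analysed here. In 2h and 4h against 0h, 4OHT itself and ERK thus cannot be told apart. The labels do not say that the libraries of a clone came from separate cultures, and p-values then measure only the spread between these libraries, which may be technical.

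Ribosome production starts in the nucleolus, where RNA polymerase I transcribes the long rRNA precursor. Small nucleolar ribonucleoproteins (snoRNPs) of the box C/D class guide its methylation and those of the box H/ACA class its pseudouridylation, while separate sets of factors build the small and the large subunit. In growing cells these genes are known to respond to mitogenic signalling and to the transcription factor MYC, which binds the sequence CACGTG, and pluripotent cells are known for a high output of ribosomes.

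Library totals ran from 4.31 to 10.4 M counts, of which 9 features that reached 1% of a library's counts took 47.1% to 79.7%. Outside them 1.25 to 5.41 M counts remained, and the rev library 1 of clone 8 was the shallowest. The 40 members together held 1.15% to 1.24% of these remaining counts in the 0h libraries, 1.21% to 1.30% at 2h, 1.38% to 1.40% at 4h and 1.32% to 1.37% at rev. The ERK feedback gene Dusp6 had 2.92 ± 1.19 CPM (counts per M of the TMM-scaled library total; SD, n = 4) at 0h, 32 ± 3.17 at 2h, 49 ± 32.4 at 4h and 1.59 ± 0.581 at rev, and Spry4 (2.02, 105.5, 141.4 and 1.51 CPM) and Fos (0.621, 15.6, 2.00 and 1.19 CPM) were also called higher at 2h and 4h than at 0h. Dusp6 and Spry4 were called lower at rev than at 4h, and Fos was not. The group means of Dusp6 and Spry4 at 4h pool unlike clones. Dusp6 held 258 and 256 counts at 2h and 600 and 291 at 4h in clone 4. In clone 8 it held 409 and 400 counts and then 227 and 126. Over the 3 genes the median log2 change at 4h against 2h was 0.806 in clone 4 and -0.56 in clone 8. Of these changes 2 were positive in clone 4 and 0 in clone 8. Whether the clones differed in this step was not tested. In bulk libraries such as these, fewer cells of a type and less RNA per cell cannot be told apart. All 6 pluripotency markers were detected in every group, with a summed level of 684 to 1160 CPM, and some of them moved. At 4h against 0h Utf1 (log2 change 1.32) and Lin28a (1.46) were higher and Nanog (-0.75) was lower, and at rev against 4h Utf1 (-1.09) and Lin28a (-0.80) were lower and Nanog (1.08) was higher. At 2h Utf1 (0.48) was higher and Otx2 (-0.90) was lower. Summed fibroblast markers stayed at or below 2.15 CPM with 2 of 4 at 0 counts in the 0h, 4h and rev groups, and the 5 primitive endoderm markers at or below 7.18 CPM. The 3 mesoderm markers summed to 1.97 to 3.94 CPM at 0h, 5.01 to 7.13 at 2h, 5.53 to 8.64 at 4h and 4.48 to 5.63 at rev. The 3 neural markers summed to 4.20 to 6.37, 5.32 to 8.56, 5.93 to 22.8 and 5.24 to 6.27 CPM in the same order. At 0h, 4h and rev 1 of 3 was at 0 counts. At 2h against 0h Pax6 was called higher (log2 change 1.31) and Sox1 lower (-0.88). At 4h against 0h Pax6 was higher (2.37), with 163 and 68 counts in clone 4 and 33 and 26 in clone 8. Of 2 primitive endoderm markers tested, 1 was called higher at rev against 0h (1.36). The part of these marker changes in the results was not tested. The third principal component held 8.57% of the variance and divided the libraries into 0h with 4h (above 0) and 2h with rev (below 0). Neither 4h against 0h nor rev against 2h crosses that divide. The other 4 comparisons cross it, and there the divide and the groups cannot be told apart. The labels name no batch.

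Before induction the members differed widely in abundance. Levels between genes are compared here per kilobase of exon. Npm1, which encodes the nucleolar chaperone nucleophosmin (chromosome 11, 33152287 to 33163206, minus strand), was the most abundant at 304.4 ± 14.9 CPM per kilobase (SD, n = 4). Ncl, which encodes nucleolin (chromosome 1, 86344719 to 86359400, minus strand), followed at 97.9 ± 4 CPM per kilobase. This order rests on the annotated exon lengths, 10188 bases for Ncl and 2665 for Npm1. Without division by length Ncl was the higher, at 997.1 CPM against 811.2 CPM for Npm1. The gap per kilobase exceeded the spread of the libraries, which does not measure an error in the lengths. The lowest was Wdr12, a large subunit factor, at 1.94 ± 0.3 CPM per kilobase over 11955 bases of annotated exon. Nop16 had the fewest reads of any member, with at least 37 counts in each library. The clones differed in level before induction for some members. Nop2, an rRNA methyltransferase gene, held 62.1 and 63.8 CPM in the 0h libraries of clone 4 and 101.6 and 107.1 CPM in those of clone 8, whereas Gar1 held 30.8 and 28.8 CPM in clone 4 and 21.8 and 18.7 CPM in clone 8.

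The members moved upward as a group by a small amount. For each library the median over the 40 members of log2 CPM minus the mean of the same clone's 0h libraries was taken. This median was 0.0825 and 0.0711 in the 2h libraries of clone 4 and 0.216 and 0.156 in those of clone 8. At 4h it was 0.295 and 0.322 in clone 4 and 0.325 and 0.315 in clone 8, the tightest of the groups. At rev it was 0.184 and 0.0806 in clone 4 and 0.2 and 0.237 in clone 8. The 4h libraries were thus the highest, and the 2h and rev libraries overlapped each other.

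**Figure D1:**
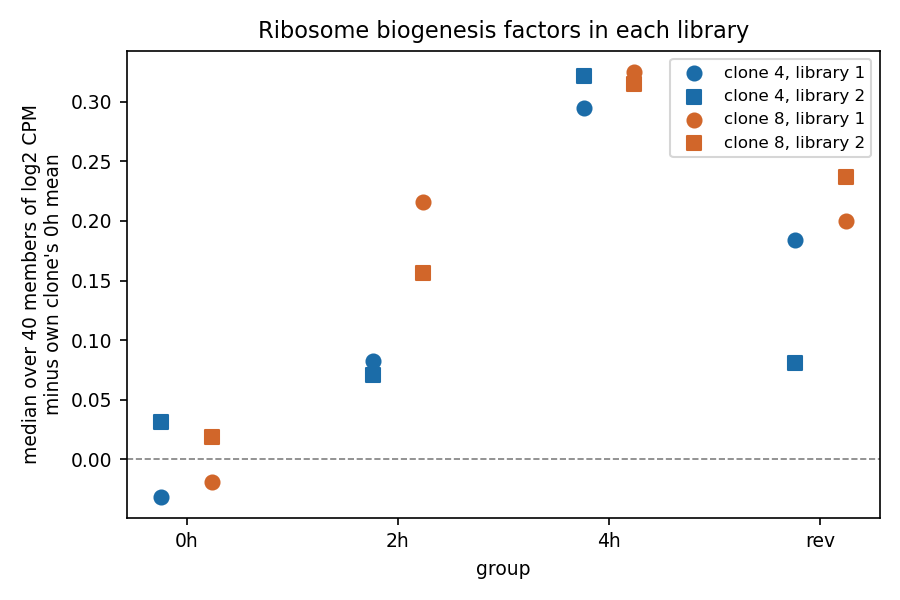
Each point is 1 library; the vertical axis is the median over the 40 members of log2 CPM minus the mean of the same clone's 0h libraries, and the horizontal axis is the group. The 4h libraries lie at 0.295 to 0.325, above all 2h and rev libraries.

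The first question was what 2 h of ERK induction did to these genes. At 2h against 0h, 9 of 40 members rose and 0 fell, beside 9.49% of all tested genes called higher and 7.48% called lower. With edgeR's unadjusted p under 0.05 there were 14 members higher and 2 lower. Here and below, unadjusted p-values were counted for the members only, with no share over all genes. DESeq2 called 10 members higher and 0 lower, beside 9.31% and 6.99% of all genes. The members' median log2 change was 0.12 (1.09-fold), with 31 of 40 positive, beside 0.00 over all tested genes. Those that rose were Wdr43, Utp20 and Wdr75 of the small subunit list, Grwd1, Rrs1 and Ppan of the large subunit list, the box C/D gene Nop58, nucleolin (Ncl) and the largest RNA polymerase I subunit, Polr1a. Most members, 31 of 40, did not pass the test at this time. The call of Wdr75 (log2 change 0.22, adjusted p 0.0483) was kept in 2 of the 16 fits that leave out 1 library.

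Wdr43, a component of the machinery that begins small subunit assembly (ENSMUSG00000041057, chromosome 17, 71615895 to 71659031, plus strand), had the largest change among those called. Its 0h libraries held 87.9 and 96.1 CPM in clone 4 and 81.9 and 85.6 CPM in clone 8, against 130.4 and 141 CPM in clone 4 and 115 and 116.4 CPM in clone 8 at 2h. All 2h libraries lay above all 0h libraries, and the log2 change was 0.51 (SE 0.069, adjusted p 8.02e-05), or 1.43-fold. Utp20, which encodes a very large scaffold protein of the small subunit precursor (ENSMUSG00000004356, chromosome 10, 88746607 to 88826804, minus strand), held 109.1, 129.1, 113.6 and 111.9 CPM at 0h (clone 4 first) and 143.4, 170.6, 158.7 and 172.5 CPM at 2h. The groups were again separate, with a log2 change of 0.48 (SE 0.0826, adjusted p 0.000776).

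Nop58, a core protein of box C/D snoRNPs (ENSMUSG00000026020, chromosome 1, 59684971 to 59719044, plus strand), held 138.4, 151.1, 134.1 and 131.6 CPM at 0h and 195.4, 227.8, 170.3 and 169.8 CPM at 2h. Its log2 change was 0.45 (SE 0.0858, adjusted p 0.00175), and the groups did not overlap. Grwd1, a histone and ribosomal protein chaperone gene (ENSMUSG00000053801, chromosome 7, 45825223 to 45830944, minus strand), held 23.4, 29.2, 23.9 and 26.4 CPM at 0h and 35.8, 41.3, 31.1 and 28.4 CPM at 2h. One clone 8 library at 2h lay inside the 0h range, and the log2 change was 0.39 (SE 0.0985, adjusted p 0.0107). Rrs1, which acts in 5S rRNA incorporation (ENSMUSG00000061024, chromosome 1, 9545408 to 9547455, plus strand), held 35.2, 35.8, 29.8 and 30.6 CPM at 0h and 47.3, 45.8, 37.8 and 34.1 CPM at 2h. Its libraries overlapped, the log2 change was 0.32 (SE 0.104, adjusted p 0.0395), and 8 of those 16 fits kept the call, with an adjusted p of up to 0.0946.

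Some members stayed flat or lay lower at 2h without a call. Polr1c, a subunit shared by RNA polymerases I and III, held 36.2, 29.4, 30.2 and 30.3 CPM at 0h and 27.8, 27.1, 24.7 and 26.4 CPM at 2h; its log2 change was -0.25 (SE 0.107, adjusted p 0.12). Fbl, the box C/D methyltransferase fibrillarin, had a log2 change of -0.22 (SE 0.0808, adjusted p 0.0634). In both genes every 2h library lay below every 0h library. With the 9 largest features removed, library totals took the place of TMM, a scaling that moved the median of all genes to -0.08. Polr1c and Fbl were then called lower by edgeR (adjusted p 0.0433 and 0.0161) and 5 members were called higher. That fit called 11.7% of all genes lower and 6.41% higher. With totals of all counts 0 members were called at 2h, beside 2.73% of all genes higher and 0.769% lower. The count was 4 without the 0h library 1 of clone 4 and 5 without the 0h library 1 of clone 8. Those fits called 5.53% and 7.45% of all genes higher and 4.22% and 6.13% lower. Without the clone term the count of members was 4 (Wdr43, Utp20, Nop58 and Ncl), beside 3.44% of all genes higher and 2.5% lower.

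The promoters of the members were searched for sequence motifs. RefSeq (GRCm38.p6) gave a window of 300 bases, 250 before and 50 from the start of transcription onward, for 35 of the 40 members. The sequence CACGTG, the E-box bound by MYC and other factors (a palindrome, so both strands read alike), occurred in 8 of these 35 windows (22.9%), beside 10.7% of 9494 windows of tested genes and 7.2% of all 27025 windows. In 7 of the 35 (20%) the match lay in the 50 bases from the start onward, beside 1.8% of the windows of tested genes, and in 1 (2.9%) it lay upstream, beside 8.7%; this split by position was made after the matches were seen. Of the 9 members called higher at 2h, 8 have a window and 3 of these hold CACGTG (Wdr43, Utp20 and Grwd1), while Nop58, Ncl, Ppan, Wdr75 and Polr1a do not. The sites of all 8 members with a match are shown, so that these 3 can be set beside the 5 not called at 2h. Each run is 30 bases on the gene's own strand, with the E-box in capitals.
Wdr43: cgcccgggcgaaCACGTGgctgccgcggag
Utp20: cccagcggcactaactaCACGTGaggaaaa
Grwd1: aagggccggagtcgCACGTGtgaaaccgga
Tsr1: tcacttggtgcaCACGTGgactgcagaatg
Ltv1: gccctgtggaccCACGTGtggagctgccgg
Pes1: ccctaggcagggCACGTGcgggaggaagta
Mybbp1a: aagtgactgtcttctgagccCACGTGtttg
Nop2: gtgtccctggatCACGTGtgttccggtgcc

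These runs lie at chr17:71616220-71616249 (Wdr43, plus strand), chr10:88826765-88826794 (Utp20, minus), chr7:45830740-45830769 (Grwd1, minus), chr11:74898092-74898121 (Tsr1, plus), chr10:13193092-13193121 (Ltv1, minus), chr11:3963965-3963994 (Pes1, plus), chr11:72441347-72441376 (Mybbp1a, plus) and chr6:125131811-125131840 (Nop2, plus). Counted from 1 at the start of transcription, the first base of the E-box is 18 in Wdr43, 38 in Utp20, 35 in Grwd1, 25 in Tsr1, 29 in Ltv1, 3 in Pes1 and 41 in Mybbp1a, and in Nop2 it lies 60 bases upstream. Wdr43, Utp20 and Grwd1 were called higher at 2h, while Tsr1 (log2 change 0.35, adjusted p 0.0547), Ltv1 (0.11), Pes1 (0.03), Mybbp1a (0.06) and Nop2 (0.03) were not. At 4h against 0h Ltv1, Mybbp1a and Nop2 were called higher and Tsr1 and Pes1 were not, beside 22 of all 40 members called higher. The value of Tsr1 at 2h is above that of Rrs1, which was called. Whether members with and without the E-box differ in their change was not tested. Nop58, the third of the members by change at 2h, has no CACGTG in its window. Its 215 bases before the annotated gene, chr1:59684756-59684970 on the plus strand, are printed for contrast, with the one match to GGGCGG in capitals.
Nop58: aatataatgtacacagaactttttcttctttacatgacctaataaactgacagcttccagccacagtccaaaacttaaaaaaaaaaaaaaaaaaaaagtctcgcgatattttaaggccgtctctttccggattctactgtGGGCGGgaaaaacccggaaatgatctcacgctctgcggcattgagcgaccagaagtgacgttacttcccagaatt

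Other motifs were searched on both strands in the same windows. The E-box variant CACGCG occurred in 12 members (34.3%, beside 18.4% of tested genes), the ETS-type sequence CCGGAAG in 13 (37.1% beside 19.1%), and GGGCGG, the core of SP1 sites, in 25 (71.4% beside 66.4%). The cyclic AMP response sequence TGACGTCA occurred in 2 (5.7% beside 3.4%) and the NRF1-type sequence GCATGCGC in 0 (beside 5.9%). A match is a description of letters in a window and does not show binding.

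After 4 h of induction more of the members had moved. At 4h against 0h, 22 of 40 rose and 0 fell, beside 7.35% of all tested genes called higher and 5.56% called lower. With edgeR's unadjusted p under 0.05 there were 32 higher and 0 lower. DESeq2 called 24 higher and 0 lower, beside 7.64% and 5.52% of all genes. The median log2 change was 0.32 (1.24-fold), with 39 of 40 positive, beside -0.01 over all tested genes; the one negative value was that of Polr1c (-0.13, adjusted p 0.477). Both clones had like medians, 0.33 in clone 4 and 0.33 in clone 8. In 25 members every 4h library lay above every 0h library, but the share of all tested genes with such a separation was not taken. Leaving out any single library left 18 to 23 members called, beside 4.33% to 7.92% of all genes called higher. Without the clone term 14 were called, beside 2.84% of all genes higher and 1.44% lower. With totals of all counts 0 members were called, beside 2.58% of all genes higher and 1.44% lower, and their median was 0.27 while that of all genes was -0.04.

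**Figure D2:**
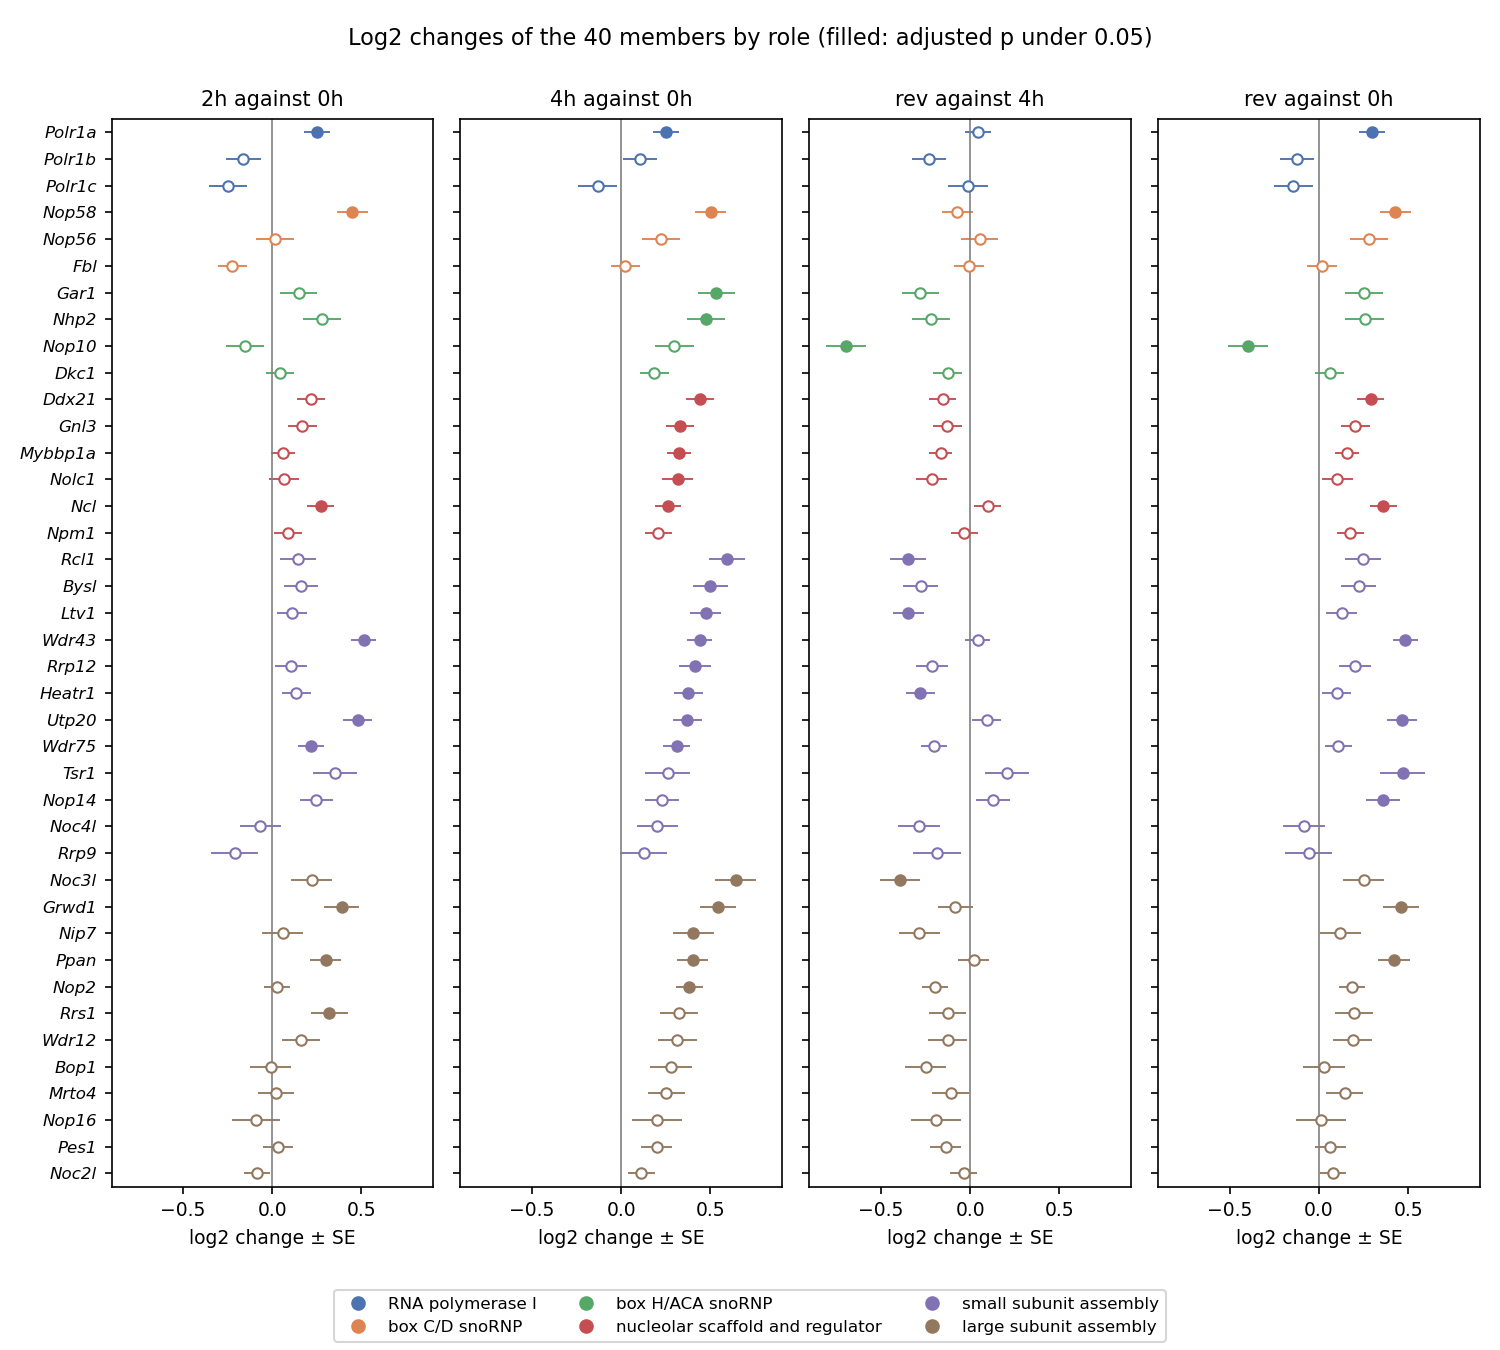
Each row is 1 of the 40 members, coloured by role and ordered within each role by the change at 4h; the horizontal axis of each panel is the log2 change with its SE, and filled points passed an adjusted p of 0.05. In the panel of 4h against 0h, 39 points lie right of 0 and 22 are filled; in the panel of rev against 4h, 32 points lie left of 0 and 5 are filled.

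Among the nucleolar scaffold and regulator genes 5 of 6 were higher at 4h, with a median log2 change over the list of 0.32. Ddx21, an RNA helicase gene, rose by 0.44 on the log2 scale (SE 0.0771, adjusted p 0.000847), and Gnl3, Mybbp1a, Nolc1 and Ncl rose by 0.33, 0.32, 0.32 and 0.26. Npm1 did not pass the test (0.21, adjusted p 0.0802), although its 4h libraries (911.9, 943, 898 and 995.9 CPM) lay above its 0h libraries (758.5, 851.7, 806.9 and 827.7 CPM). Ncl held 966.3, 1057, 985.2 and 979.7 CPM at 0h, 1158, 1278, 1160 and 1219 CPM at 2h and 1214, 1178, 1172 and 1217 CPM at 4h. The 2h and 4h values of nucleolin overlapped, and both lay above 0h.

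Of the 12 small subunit factors 8 rose at 4h, with a median over the list of 0.37. The largest change was in Rcl1, which encodes a protein needed for cleavage of the precursor rRNA (ENSMUSG00000024785, chromosome 19, 29101375 to 29143929, plus strand). Rcl1 held 20.2, 19.2, 24.4 and 26.7 CPM at 0h, 22 and 17.3 CPM in clone 4 and 30.8 and 30.3 CPM in clone 8 at 2h, and 30.9, 31, 35.8 and 38.4 CPM at 4h. Its 4h libraries were separate from the 0h libraries, and the log2 change at 4h was 0.59 (SE 0.101, adjusted p 0.000696). Bysl (0.50), Ltv1 (0.47), Wdr43 (0.44), Rrp12 (0.41), Heatr1 (0.38), Utp20 (0.37) and Wdr75 (0.31) also rose, and Rrp9, Nop14, Noc4l and Tsr1 had log2 changes of 0.13 to 0.26 that did not pass. Bysl shares 9.4% of its exon length with Ccnd3, which itself was not called at 4h against 0h, and Tsr1 shares 32.3% with Srr on the opposite strand, so with counting of unknown strandedness their counts are uncertain.

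Wdr43 and Utp20 were no higher at 4h than at 2h. Wdr43 held 120.1, 126.2, 113.9 and 116.5 CPM at 4h, and Utp20 held 156.7, 146.5, 151.5 and 144.9 CPM. Both sets of values overlapped those at 2h and lay above those at 0h.

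Of the 12 large subunit factors 5 rose, with a median over the list of 0.32. Noc3l, needed for transport and maturation of the large subunit precursor (ENSMUSG00000024999, chromosome 19, 38788128 to 38819237, minus strand), had the largest change of all members. It held 27.4, 28.3, 28.9 and 32.6 CPM at 0h, 28.3, 33.6, 39.3 and 35.4 CPM at 2h and 48.1, 49.8, 42.9 and 42.3 CPM at 4h. The 4h libraries lay above all others in these groups, and the log2 change at 4h was 0.64 (SE 0.115, adjusted p 0.00103), or 1.56-fold. Grwd1 held 40.9, 38.4, 35.4 and 35.7 CPM at 4h, and its log2 change was 0.54 (SE 0.1, adjusted p 0.00139). Nip7 (0.40), Ppan (0.40) and Nop2 (0.38) rose as well. The PeBoW complex, a trimer that acts in maturation of the large subunit rRNAs, had 3 positive changes of which 0 passed: Wdr12 at 0.31 (adjusted p 0.0649), Bop1 at 0.28 (0.119) and Pes1 at 0.20 (0.137).

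Of the 7 core snoRNP proteins in the set 3 rose at 4h. In the box H/ACA particle, Gar1 and Nhp2 rose and Nop10 and the pseudouridine synthase gene Dkc1 did not pass. Gar1 (ENSMUSG00000028010, chromosome 3, 129824912 to 129831396, minus strand) held 47.2 and 50 CPM in clone 4 and 26.1 and 25.7 CPM in clone 8 at 4h, each above the 0h libraries of its own clone, with a log2 change of 0.53 (SE 0.105, adjusted p 0.00237). Nhp2 changed by 0.47 (adjusted p 0.0063), Nop10 by 0.30 (adjusted p 0.0788) and Dkc1 by 0.19 (adjusted p 0.14). In the box C/D particle Nop58 held 200.4, 204.7, 194 and 185.8 CPM at 4h, and its log2 change was 0.50 (SE 0.0863, adjusted p 0.000776). Its partners Nop56 (0.23, adjusted p 0.17) and Fbl (0.02, adjusted p 0.9) were not called; whether Nop58 differs from them was not tested.

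Of the 3 RNA polymerase I subunits in the set, Polr1a rose at 4h by 0.25 on the log2 scale (SE 0.0724, adjusted p 0.0281). Polr1b, the second largest subunit, had 0.11 (adjusted p 0.518). Polr1a held 90.7, 101.1, 84.5 and 82.9 CPM at 0h and 111.2, 106.2, 101.2 and 107 CPM at 4h, and the lowest 4h library lay just above the highest 0h library.

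**Figure D3:**
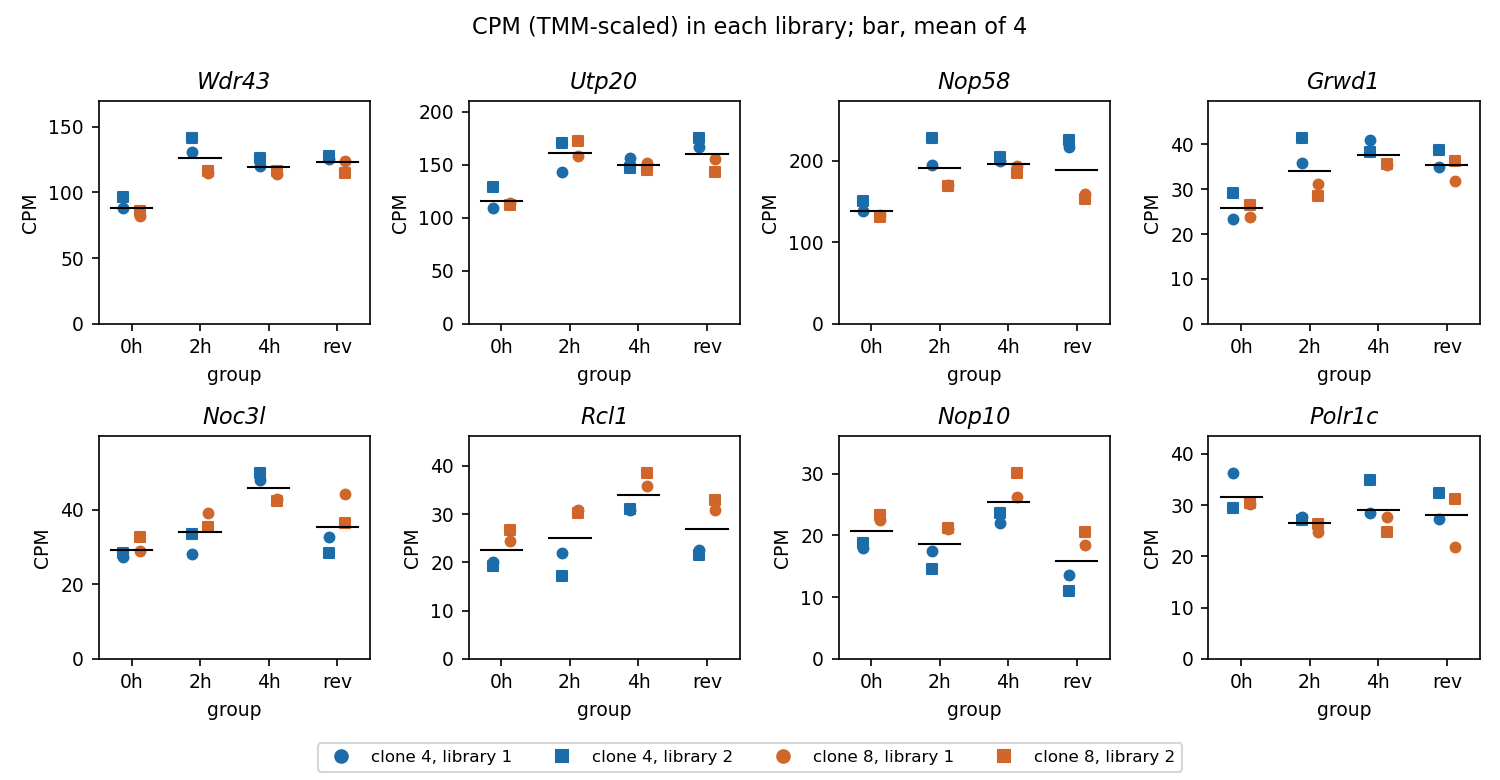
CPM of 8 members in each library by group, on linear axes from 0, with clone 4 in blue, clone 8 in orange and a bar at the mean of 4 libraries. Wdr43, Utp20 and Nop58 are up at 2h and remain up at rev, Noc3l and Rcl1 are highest at 4h, Nop10 has its lowest mean at rev, and the mean of Polr1c is highest at 0h.

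The step from 2h to 4h shares its libraries with both earlier comparisons, and its values are given beside them. At 4h against 2h, 10 of 40 members rose and 0 fell, beside 5.78% of all genes called higher and 6.36% called lower, with a median log2 change of 0.22. With edgeR's unadjusted p under 0.05 there were 21 higher and 0 lower. DESeq2 called 14 higher and 0 lower, beside 5.82% and 6.47% of all genes. Nop10, a small protein of the H/ACA core (ENSMUSG00000027133, chromosome 2, 112261926 to 112263269, plus strand), held 17.5, 14.5, 21 and 21.2 CPM at 2h and 22, 23.6, 26.1 and 30 CPM at 4h; its log2 change was 0.45 (SE 0.107, adjusted p 0.0114). Rcl1 rose by 0.45, Noc3l by 0.42, Gar1 by 0.39, Ltv1 by 0.36, Nop2 by 0.35, Nip7 by 0.35, Bysl by 0.34, Rrp12 by 0.31 and Mybbp1a by 0.26. The partner of Bysl, Ccnd3, was higher too (0.56). The count was 6 without the 2h library 2 of clone 4. It was 4 without the 4h library 1 and 5 without the 4h library 2 of clone 4. Without the filter on low counts it was 4, without the clone term 1 and with totals of all counts 0. In the same fits and order, 2.55%, 2.52%, 2.91%, 2.68%, 1.05% and 1.16% of all tested genes were called higher. Called lower were 2.97%, 2.88%, 3.09%, 3.63%, 1.04% and 1.86%.

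Reversal by the MEK inhibitor was addressed by rev against 4h. Here 5 of 40 members fell and 0 rose, beside 5.1% of all genes called lower and 4.5% called higher. With edgeR's unadjusted p under 0.05 there were 16 lower and 0 higher. DESeq2 called 6 lower and 0 higher, beside 5.25% and 4.52% of all genes. The median log2 change was -0.15 (0.904-fold), with 32 of 40 negative. Thus 35 of 40 members were not called, and these include members with no called rise at 4h against 0h. Of the 5 that fell, Noc3l, Rcl1, Ltv1 and Heatr1 had been called higher at 4h against 0h and Nop10 had not. Dusp6 changed by -5.03 and Spry4 by -6.41 on the log2 scale in the same libraries. The members' median change at 4h against 0h was only 0.32, so the sizes of these falls are not comparable.

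Nop10 had the largest change: it held 13.6, 11.1, 18.5 and 20.6 CPM at rev, below every 4h library, and the log2 change was -0.69 (SE 0.112, adjusted p 0.00052). Noc3l held 32.6 and 28.4 CPM in clone 4 and 44.2 and 36.6 CPM in clone 8 at rev, a log2 change of -0.39 (SE 0.113, adjusted p 0.0336). Rcl1 held 22.6, 21.4, 30.9 and 32.9 CPM, a change of -0.35 (SE 0.0994, adjusted p 0.0321). In both Noc3l and Rcl1 the clone 4 libraries were the lower ones at rev and some clone 8 libraries overlapped 4h. For Rcl1 that overlap was with the 4h libraries of clone 4 (30.9 and 31 CPM). Within clone 8 its rev libraries lay below its 4h libraries (35.8 and 38.4 CPM). The change of Rcl1 was not called different between the clones by edgeR (adjusted p 0.327).

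Ltv1, an export factor of the small subunit (ENSMUSG00000019814, chromosome 10, 13178140 to 13193168, minus strand), held 37.2, 41.4, 33.1 and 38.4 CPM at 4h and 31.1, 28.4, 29.7 and 28.7 CPM at rev, a change of -0.35 (SE 0.0862, adjusted p 0.0148). Heatr1, needed for precursor rRNA transcription and processing (ENSMUSG00000050244, chromosome 13, 12395027 to 12440289, plus strand), held 135.6, 130, 132 and 126.3 CPM at 4h and 112.7, 109.5, 95.1 and 113 CPM at rev, a change of -0.28 (SE 0.0804, adjusted p 0.0333). These genes were separate between the groups. Nop10 was the only one of the 5 called in all 16 fits that leave out 1 library; Ltv1 was called in 14, Rcl1 and Noc3l in 11 each and Heatr1 in 10. The count of members was 2 without the 4h library 1 and 1 without the 4h library 2 of clone 4. It was 2 without the rev library 1 and 1 without the rev library 2 of clone 4. It was 2 without the filter on low counts or with only the groups compared, and 0 without the clone term. With totals of all counts it was 1, when the median of all genes was -0.20 and that of the members -0.35. In the same fits and order, 2.74%, 3.11%, 2.78%, 2.65%, 2.77%, 4.07%, 1.22% and 3.51% of all tested genes were called lower.

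After the inhibitor, part of the set lay above its level before induction. At rev against 0h, 10 of 40 members were higher and 1 lower, beside 5.51% of all genes called higher and 4.94% called lower. The median log2 change was 0.19 (1.14-fold), with 35 of 40 positive. Wdr43 held 125, 127.9, 124.1 and 114.9 CPM at rev, a log2 change against 0h of 0.48 (SE 0.0696, adjusted p 0.000352). Utp20 held 167, 174.9, 155.3 and 142.8 CPM (0.46, SE 0.0832, adjusted p 0.00178). Both were above all of their 0h libraries.

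Grwd1 held 34.9, 38.8, 31.8 and 36.3 CPM at rev (0.46, SE 0.1, adjusted p 0.00672), also above 0h. Nop58 held 216.6 and 225.4 CPM in clone 4 and 159.3 and 153.3 CPM in clone 8 (0.43, SE 0.0864, adjusted p 0.00422). Tsr1, a GTPase-like factor of late small subunit assembly (ENSMUSG00000038335, chromosome 11, 74898071 to 74909342, plus strand), held 44.4, 44.7, 33.4 and 41.4 CPM at 0h and 61.2, 70.1, 40.3 and 53.7 CPM at rev (0.47, SE 0.125, adjusted p 0.0223). One clone 8 library of Tsr1 lay inside the 0h range, and 11 of the 16 fits that leave out 1 library kept its call. Ppan (0.42), Ncl (0.36), Nop14 (0.36), Polr1a (0.29) and Ddx21 (0.29) were the other members higher at rev. Nop10 was the one lower, at -0.40 (SE 0.113, adjusted p 0.0297), with 18, 18.8, 22.5 and 23.3 CPM at 0h; its fall below 0h was called in 11 of 16 fits. The count was 7 without the 0h library 1 of clone 4 or the rev library 2 of clone 4. Those fits called 2.84% and 3.03% of all genes higher and 2.42% and 2.29% lower. Without the clone term the count of members was 4, beside 1.17% of all genes higher and 0.973% lower. With totals of all counts 0 members were called, beside 0.84% of all genes higher and 2.69% lower. The members' median was then -0.05 and that of all genes -0.24, so the sign of the members' median depended on the scaling. A change of scaling moves all genes of a library nearly alike, so the gap between these medians cannot test the members' position.

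Both rev and 2h stand 2 h from a change of treatment, and they were compared directly. At rev against 2h, 0 of 40 members were called by edgeR, beside 0.769% of all genes higher and 1.01% lower. Unadjusted edgeR p-values were under 0.05 for 4 members higher and 1 lower. DESeq2 called 0 members, beside 1.07% of all genes higher and 1.4% lower. An edgeR fit of these groups alone called 1, Nop56 (adjusted p 0.043), beside 3.42% of all genes higher and 3.38% lower. The median log2 change was 0.06. The smallest adjusted p belonged to Fbl (0.24, SE 0.0809, adjusted p 0.152), and a p that misses the threshold does not show that the levels were equal.

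The clones could be compared within each step by a test of the difference between their changes. At 2h against 0h, 1 member changed more positively in clone 8 and 0 more negatively, beside 2.93% and 5.01% of all genes. It was Nop56 (ENSMUSG00000027405, chromosome 2, 130274430 to 130279313, plus strand), which held 134.2 and 134.3 CPM at 0h and 124.9 and 97.5 CPM at 2h in clone 4, but 121.5 and 123.2 CPM and then 152.9 and 146.3 CPM in clone 8. The log2 changes were -0.27 and 0.29, a difference of 0.56 (SE 0.152, adjusted p 0.0181). This call was lost when the 0h library 2 of clone 4, either 0h library of clone 8, the 2h library 2 of clone 4 or the 2h library 1 of clone 8 was left out, and with totals of all counts. At 4h against 0h, 0 members differed, beside 2.03% of all genes more positive and 3.69% more negative in clone 8; 2 members had an unadjusted edgeR p under 0.05 and DESeq2 called 0.

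At rev against 4h, 4 members changed more positively and 1 more negatively in clone 8, beside 6.3% and 6.89% of all genes, a share near that background. Bop1, a PeBoW subunit (ENSMUSG00000022557, chromosome 15, 76452989 to 76477277, minus strand), held 46.8 and 54.6 CPM at 4h and 33.3 and 33.6 CPM at rev in clone 4, but 45.1 and 43.6 CPM and then 48.1 and 46.8 CPM in clone 8. The difference between its changes was 0.67 (SE 0.161, adjusted p 0.00428). Noc4l, a small subunit factor (ENSMUSG00000033294, chromosome 5, 110648418 to 110653417, minus strand), held 37.3 and 35.3 CPM and then 25.9 and 22.5 CPM in clone 4, against 27.2 and 28.5 CPM and then 27.9 and 29.2 CPM in clone 8, a difference of 0.64 (SE 0.183, adjusted p 0.017). In both genes the rev libraries of clone 4 lay below its 4h libraries, and those of clone 8 did not.

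Rrp9 (difference 0.61, adjusted p 0.0261) and Noc3l (0.57, adjusted p 0.0236) followed the same order, while Nop58 (-0.41, adjusted p 0.0486) changed by 0.13 in clone 4 and -0.28 in clone 8. Over the 40 members the median log2 change at rev against 4h was -0.18 in clone 4 and -0.05 in clone 8. The count of 5 fell to 2 without the 4h library 1 or 2 of clone 4 or the 4h library 1 of clone 8, to 3 without the 4h library 2 or either rev library of clone 8, to 1 without the rev library 2 of clone 4, to 3 without the filter on low counts, and to 2 with DESeq2 or with totals of all counts.

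**Figure D4:**
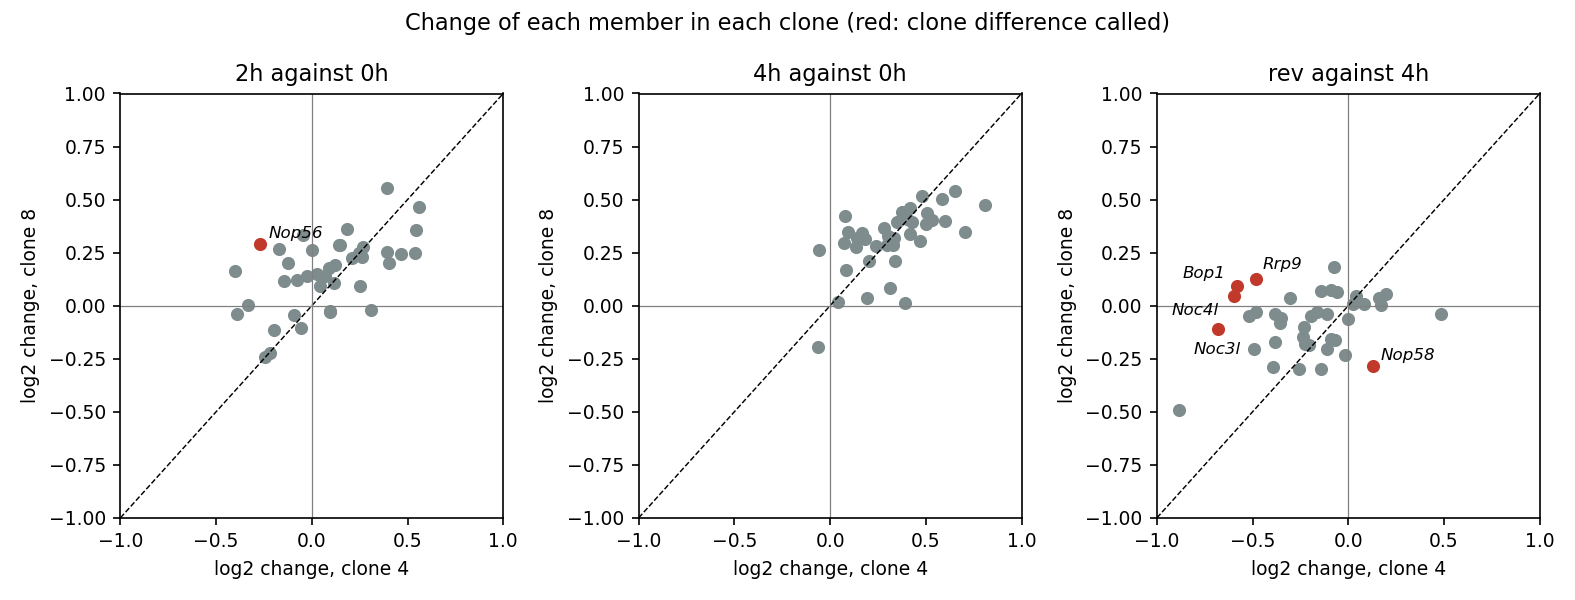
Each point is 1 member; the horizontal axis is its log2 change in clone 4 and the vertical axis that in clone 8, for 3 comparisons, with a dashed line of equal change. Red points are members whose difference between clones was called: Nop56 at 2h, none at 4h, and Nop58, Rrp9, Noc4l, Bop1 and Noc3l at rev against 4h.

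Other genes of ribosome production were followed in 4 further lists with 105 tested genes, chosen with earlier results known. At 4h against 0h 44 of 105 rose and 0 fell, with a median log2 change of 0.29, beside 7.35% of all tested genes higher and 5.56% lower. At 2h 22 rose and 0 fell (median 0.13), beside 9.49% higher and 7.48% lower. At rev against 4h 6 fell and 0 rose, and these 6 of 105 are near the 5.1% of all genes called lower. At rev against 0h 16 were higher and 1 lower, beside 5.51% and 4.94%. In the RNA polymerase I and rDNA list 6 of 12 rose at 4h, with the largest changes in Taf1a (0.74) and Taf1d (0.58), subunits of the polymerase I selectivity factor. In the other small subunit list 14 of 40 rose, led by Utp15 (0.53) and Pwp2 (0.51), and in the other large subunit list 20 of 44, led by Nifk (0.61) and Rrp15 (0.55). In the snoRNP assembly list 4 of 9 rose, led by Naf1 (0.79), an H/ACA assembly factor, and Ruvbl1 (0.45), a helicase of snoRNP assembly. Naf1 and Ruvbl1 also fell at rev against 4h, by 0.62 and 0.61 on the log2 scale.

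RNA polymerase III, which transcribes 5S rRNA and transfer RNA, showed 2 of 14 genes higher at 4h (Polr3d at 0.60 and Polr3g at 0.38) and 0 lower, beside 7.35% and 5.56% of all genes. At 2h 4 rose and 1 fell, beside 9.49% and 7.48%, so the 1 of 14 that fell is near the background: the largest rise was in Polr3f (0.47), and the gene that fell was Maf1 (-0.44, adjusted p 0.0337), which encodes a repressor of the polymerase.

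Within the MYC network list of 11 genes, 1 gene rose and 1 fell at 2h and likewise at 4h, which is near the share of all genes called (9.49% and 7.48% at 2h, 7.35% and 5.56% at 4h). Myc held 1.60, 1.97, 2.28 and 0.575 CPM at 0h, 13.2, 13.3, 39.3 and 36.4 CPM at 2h, 37.6, 37.8, 16.7 and 22.5 CPM at 4h and 3.61, 4.36, 2.12 and 1.28 CPM at rev. Its log2 change was 3.97 at 2h against 0h (SE 0.48, adjusted p 2.52e-05), 4.08 at 4h against 0h (SE 0.485, adjusted p 1.86e-05) and -3.20 at rev against 4h (SE 0.433, adjusted p 0.000108). Clone 8 held more Myc at 2h and clone 4 more at 4h. Mycn, a related gene, held 66.1, 64.9, 53.6 and 59.1 CPM at 0h and had log2 changes of 0.17, 0.07 and -0.11 in the same comparisons, which did not pass (adjusted p 0.254, 0.699 and 0.547). The gene that fell was Mycl, by 0.68 at 2h and 1.28 at 4h. Between rev and 0h Myc differed by 0.88 on the log2 scale, which did not pass (SE 0.645, adjusted p 0.419).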

How the data were processed

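The authors deposited 1 table of raw counts, whole numbers per Ensembl gene and library, with no normalization. Per the submitters' processing notes, bcl2fastq 2.19.1, STAR 2.5.3a and the build mm10 were used; the counting program, annotation and strand setting are not given in the sources used here. Names and coordinates came from GENCODE M21 (GRCm38; 52489 identifiers matched, 147 did not). Groups came from the sample titles. Genes were kept with filterByExpr (minimum count 10, minimum total 15), scaled by TMM and tested by quasi-likelihood in edgeR 4.0.16 under R 4.3.3 over 16 libraries, with group and clone in the model. Clone differences came from a fit with 1 term for each clone in each group. Benjamini-Hochberg adjustment ran over all 12742 genes, with calls at 0.05. SE is the log2 change over the square root of F. CPM are TMM-scaled counts relative to the total of the kept genes. The members and lists were chosen with earlier results of these data known. Members named with values were those with the largest called changes (5 per comparison with 0h or of rev with 4h, 2 per clone difference), the 2 most abundant and those completing a complex. The script was tested on simulated data. Alternatives were library totals, DESeq2 1.42.0, no filter, no clone term, a replicate block, removal of features above 1%, leaving out each library and, chosen after seeing the data, only the groups compared. Promoters used the first RefSeq window per gene. By rule, sites of Wdr43, Utp20 and Grwd1 and the upstream run of Nop58 were printed; the other 5 E-box sites, Polr1c, Fbl, Nop2, the pluripotency markers named singly and the genes of 4h against 2h were added after values were seen.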

Additional observations from a re-analysis of the deposited data

Results flagged for a closer look

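In 1 group of 4 libraries a single value stood apart by Dixon's ratio: Rrs1 at 4h held 33.4 CPM in library 2 of clone 8, against 42.7 to 43.6 CPM in the other libraries (ratio 0.909). Of 84 groups examined this was the only one above the 95% critical value, and chance gives about 1 in 20.

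The change differed between the clones, by an interaction test, for 6 results, given as clone 8 change minus clone 4 change on the log2 scale. Nop56 differed by 0.56 at 2h against 0h; 1 of 40 is below the share of all tested genes, 2.93% more positive and 5.01% more negative in clone 8. At rev against 4h the differences were 0.67 for Bop1, 0.64 for Noc4l, 0.61 for Rrp9, 0.57 for Noc3l and -0.41 for Nop58; 5 of 40 is near the share of all tested genes, 6.3% and 6.89%. The rev library 1 of clone 8, with 79.7% of its counts in 9 features, enters the last 5; without it 3 members were called.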

How the results depend on the processing

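With library totals of all counts, the counts of members called were 0 at 2h against 0h, 0 at 4h against 0h, 0 at 4h against 2h, 1 at rev against 4h and 0 at rev against 0h, with clone differences of 0 at 2h and 2 at rev against 4h. With these totals 2.73% of all genes were called higher at 2h against 0h, 2.58% at 4h against 0h and 1.16% at 4h against 2h. At rev against 4h 3.51% were called lower, and at rev against 0h 0.84% were called higher. The 9 large features enter these totals; the cause of the changes was not tested. Without the clone term the counts were 4, 14, 1, 0 and 4 in the same order. That fit also called fewer of all tested genes. Called higher were 3.44% at 2h against 0h, 2.84% at 4h against 0h, 1.05% at 4h against 2h and 1.17% at rev against 0h. Called lower at rev against 4h were 1.22%. Without the filter the counts were 4 at 4h against 2h, beside 2.68% of all genes higher, and 2 at rev against 4h, beside 2.77% lower. Clone differences at rev were then 3. DESeq2 gave 2 clone differences at rev, and only the groups compared, chosen after seeing the data, gave 2 at rev against 4h and 1 at rev against 2h. With features above 1% removed, 5 members rose and 2 fell at 2h, beside 6.41% of all genes higher and 11.7% lower.

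Leaving out 1 library gave 4 to 10 at 2h against 0h, 18 to 23 at 4h against 0h, 4 to 13 at 4h against 2h, 1 to 5 at rev against 4h and 7 to 12 at rev against 0h. Over the same fits 5.53% to 10.3% of all genes were called higher at 2h against 0h. The shares higher were 4.33% to 7.92% at 4h against 0h, 2.52% to 6.44% at 4h against 2h and 2.84% to 6.39% at rev against 0h. At rev against 4h 2.65% to 6.05% were called lower. Clone differences were 0 to 2 at 2h and 1 to 6 at rev. The share of all genes with a clone difference was not taken in the refits. With the replicate block the counts of members called were 7, 22, 9, 4, 11 and 0, and the clone differences 1, 0 and 4. In the same order of comparisons it called 8.22%, 6.07%, 4.09%, 3.37%, 4.32% and 0.526% of all genes higher. Called lower were 6.17%, 4.32%, 4.61%, 3.79%, 3.74% and 0.714%. Libraries that share a number within a clone did not deviate together across groups (mean r = -0.0106 after clone means were removed), so the number is only a name; under the block Rrs1 (adjusted p 0.0627) and Wdr75 (0.0675) at 2h against 0h, Nip7 at 4h against 2h (0.0757) and Noc3l at rev against 4h (0.0599) lost their calls. Of 1564 refitted log2 changes of named members, 1452 kept their side of the threshold. A call was lost in 95, gained in 17 and reversed in 0. A change of sign with no call in either fit was counted among the 1452.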
